A study of Mus musculus with 12 samples.

Results

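The comparison set the hippocampus of mice 14 d after kainic acid against that of control mice 14 d after vehicle. All 6 of the 12 arrays of the series whose titles give 14 d were taken, 3 titled as kainic acid (KA) and 3 titled as control, and all 6 were used. Every title also carries the word Input, which the labels do not explain. KA, which activates glutamate receptors of the kainate class and sets off status epilepticus, had been injected into the amygdala at 0.3 µg in 0.2 µl of phosphate-buffered saline. Lorazepam, a benzodiazepine that dampens seizures, was given at 6 mg/kg into the abdomen 40 min later. Control mice received 0.2 µl of the vehicle in the amygdala and had no seizures, and the labels do not say whether lorazepam was given to them. RNA came from the hippocampus on the injected side. Strain, age and sex, and whether the arrays are of separate animals, are not in the labels, so the p-values speak only of the spread among these samples, and that spread may be technical. The comparison asks which transcripts differed in this tissue at a late time after status epilepticus.

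Status epilepticus in this model injures hippocampal neurons on the side of the injection, and glial cells react over the days that follow. Microglia, the resident phagocytes of the brain, then take up debris through complement and lysosomal routes, and astrocytes enlarge and build up intermediate filaments. Neurons that fire strongly switch on immediate early genes within minutes and then, over hours, genes for secreted factors and peptides, whose RNA can remain high where seizures recur.

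Values are log2 RMA intensities, and the values of a gene are given in the order of replicates 1, 2 and 3 of a group. The median of an array was 4.90 to 4.95. Over all probe sets, pairs of arrays within a group had r = 0.995 to 0.997 among controls and 0.989 to 0.995 for KA. KA replicates 2 and 3 were the pair furthest apart. KA replicate 2 had the narrowest spread of values over probe sets (SD 1.73, against 1.79 to 1.84 on the other 5 arrays at 14 d), and its GC-rich background probe sets read 4.68, against 4.65 and 4.27 on KA replicates 1 and 3 and 4.43, 4.40 and 4.18 on the controls. The part of these array differences in the results was not tested. Results that rest on KA replicate 2 or 3 are therefore given with and without that array.

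Of 13853 genes tested, 354 changed between KA and control (2.56%, limma adjusted p under 0.05). Rises numbered 275 (1.99%) and falls 79 (0.57%). The rises were also the larger changes: 49 genes rose by at least 2-fold (0.354%) and 0 fell by that much at this threshold. The median log2 change was 0.61 among the rises and -0.45 among the falls, while over all genes tested it was -0.01. KA and control arrays did not overlap in 353 of the 354 changed genes, and in 16.5% of all genes tested. An unadjusted limma p under 0.05 was found for 1745 of the 13853 genes (12.6%). With 1 array left out at a time, the count of changed genes lay between 196 (without control replicate 2) and 457 (without KA replicate 2), and it was 211 without control replicate 3 and 228 without KA replicate 1. Rises numbered 179, 165, 179 and 181 without control replicate 1, 2 or 3 or KA replicate 1. Falls numbered between 31 (without control replicate 2) and 138 (without KA replicate 3), with 32 without control replicate 3 and 47 without KA replicate 1. In all, 156 of the changed genes, 135 rises and 21 falls, kept their call whichever of the 6 arrays was left out.

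**Figure D1:**
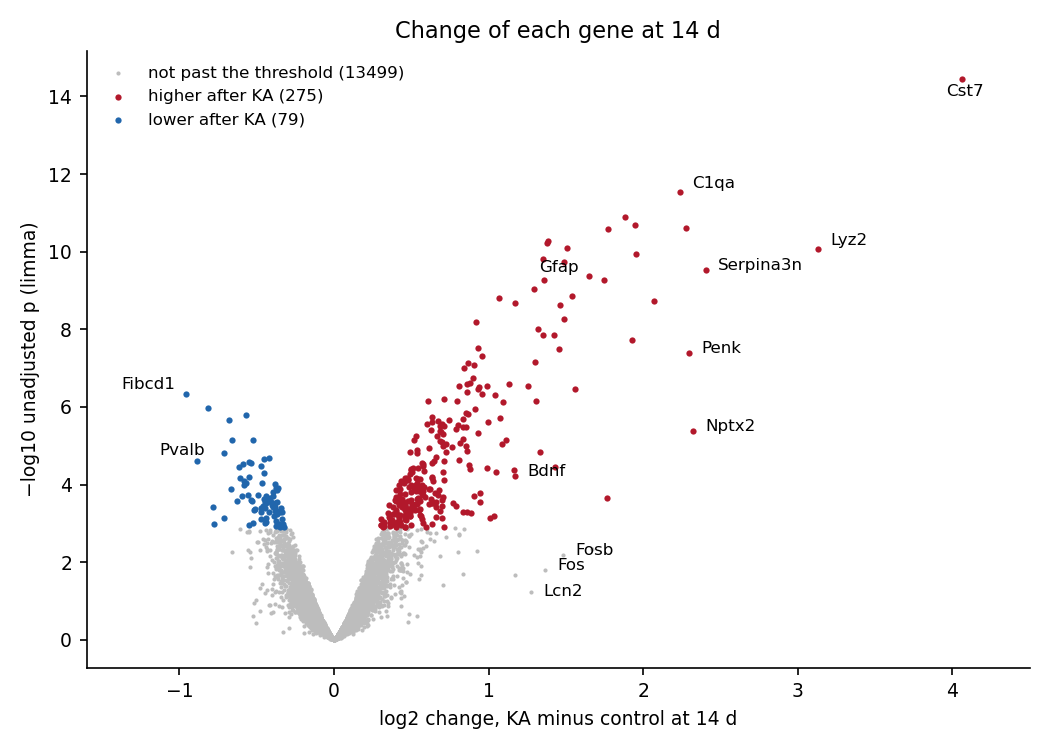
Each point is 1 of 13853 genes tested, with the log2 change between KA and control at 14 d on the horizontal axis and −log10 of the unadjusted limma p on the vertical axis; 275 genes were called higher and 79 lower. The rises extend to 4.06 for Cst7, the falls to -0.96 for Fibcd1, while Fos, Fosb and Lcn2 had fitted changes above 1 and were not called.

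Genes of activated microglia and phagocytes had the highest median change of the 43 lists examined. Of 21 tested members, 15 rose, 0 fell and 6 were not called, with a median log2 change of 0.96. The count of 15 was the same with each of the 6 arrays left out in turn. On KA replicates 1, 2 and 3 the median difference of the list from the control mean was 0.91, 1.13 and 1.03, so all 3 KA arrays carried it.

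Cst7, a secreted inhibitor of lysosomal cysteine proteases that marks activated microglia, read 4.16, 3.996 and 3.94 on the control arrays and 7.83, 7.99 and 8.46 on the KA arrays. None of the control arrays was above its own background, and every KA array was far above it. Against that background the KA level of Cst7 was at least 13.5-fold higher, and the fitted log2 difference was 4.06 ± 0.13 (SE, 3 arrays in each group, limma adjusted p = 4.85e-11). Lyz2, the lysozyme of macrophages and microglia, read 5.31, 5.50 and 5.46 in controls and 8.26, 9.14 and 8.26 after KA. It was 8.75-fold higher (3.13 ± 0.20, limma adjusted p = 1.16e-07), with KA replicate 2 the highest array. Tyrobp, the signalling adaptor of several microglial receptors, rose from 7.48, 7.97 and 8.02 to 9.63, 9.88 and 9.82. Trem2, a lipid receptor that signals through Tyrobp, read 5.42, 5.36 and 5.44 in controls and 6.79, 6.94 and 6.58 after KA (1.36 ± 0.10). Both receptor and adaptor were thus higher, with no overlap between groups. Cd68, a glycoprotein of phagocyte endosomes and lysosomes, read 5.34, 5.44 and 5.19 in controls and 7.23, 7.50 and 7.08 after KA (1.95 ± 0.11).

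Other rises of the same kind were Fcer1g, the common Fc receptor chain (1.48 ± 0.10), Laptm5, a lysosomal membrane protein of blood-lineage cells (1.35 ± 0.09), and Gpnmb, a glycoprotein of lipid-laden phagocytes (0.95 ± 0.11). Apoe, the lipid carrier made by astrocytes and by activated microglia, read 7.84, 7.79 and 7.66 in controls and 8.45, 8.89 and 8.45 after KA. Clec7a, the beta-glucan receptor dectin-1, was below background on all 3 control arrays and reached 4.24, 4.54 and 4.30 after KA, which is at or under the background of KA replicates 1 and 2. Its call (0.86 ± 0.10, limma adjusted p = 8.68e-05) therefore rests on dim values. Members of the list that were not called included Itgax, the CD11c integrin chain (5.05, 5.11 and 5.12 against 5.37, 5.69 and 5.49, adjusted p = 0.0529), and Lgals3, galectin-3 (4.23, 4.30 and 4.37 against 4.52, 4.71 and 4.51, adjusted p = 0.185). These genes did not overlap between groups either, as 18 of the 21 members did not, against 16.5% of all genes tested.

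The 20 largest rises held further phagocyte genes. Mpeg1, perforin-2, a member of the same list, read 5.74, 5.71 and 5.68 in controls and 7.06, 7.64 and 7.39 after KA (1.65 ± 0.12). Outside the lists, Cd53, a tetraspanin of leukocytes and microglia, rose from 4.91, 5.61 and 5.35 to 6.49, 6.93 and 7.11, and Cyba, the p22 subunit of the phagocyte NADPH oxidase, from 6.80, 6.88 and 7.14 to 8.24, 8.63 and 8.42. Itgb2, the beta-2 integrin chain, rose by 1.46 ± 0.12, and Plek, pleckstrin of phagocytes and platelets, by 1.43 ± 0.13. Trim30d, of the Trim30 family whose members are near copies, was at least 2.86-fold higher (4.08, 4.28 and 3.90 against 5.71, 6.04 and 5.81, adjusted p = 0.0148). Its call was lost without control replicate 1 or control replicate 3 (highest adjusted p over the 6 fits 0.066).

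Genes of resting microglia rose as well. Of 11 tested members of the homeostatic list, 8 rose and 0 fell, with a median log2 change of 0.81 and nearly equal medians on the 3 KA arrays (0.71, 0.71 and 0.68). Cx3cr1, the fractalkine receptor, read 7.81, 7.86 and 7.96 in controls and 8.78, 8.97 and 9.00 after KA (1.04 ± 0.12, limma adjusted p = 0.00013). Csf1r, the receptor that keeps microglia alive, read 7.43, 7.31 and 7.35 against 8.28, 8.18 and 8.05 (0.81 ± 0.09). Fcrls, an Fc receptor-like protein of microglia, rose by 1.51 ± 0.10 and Olfml3, a secreted matrix protein of microglia, by 1.30 ± 0.13. Tmem119, a membrane marker of brain-resident microglia, rose by 0.63 ± 0.12 (adjusted p = 0.00662). Aif1, the actin-binding protein IBA1, read 5.24, 5.27 and 5.41 in controls and 6.00, 6.02 and 6.47 after KA (0.85 ± 0.12). P2ry12, the ADP receptor of ramified microglia, read 7.23, 7.42 and 7.57 against 7.76, 7.76 and 8.01. The groups of P2ry12 did not overlap, and the change of 0.43 ± 0.13 did not pass the threshold (adjusted p = 0.104). In whole tissue, more cells of a type and more RNA per cell cannot be told apart, nor can fewer cells and less RNA per cell.

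Complement genes changed on the side of the classical pathway. Of 12 tested, 7 rose and 0 fell, with a median of 0.48. C1qa, C1qb and C1qc, which encode the 3 chains of the initiating molecule C1q, rose together. C1qa read 6.89, 7.12 and 7.001 in controls and 9.08, 9.41 and 9.23 after KA (2.24 ± 0.11, 4.72-fold, limma adjusted p = 2.04e-08). C1qb rose by 1.88 ± 0.10, and C1qc by 1.77 ± 0.10 with KA arrays at 8.88, 8.91 and 8.89. C4b, the next component of the classical route, read 6.50, 6.73 and 7.14 in controls and 9.14, 8.92 and 9.14 after KA (2.28 ± 0.13). C3ar1, the receptor for the C3a fragment, read 4.62, 5.04 and 4.87 against 6.41, 6.96 and 6.95 (1.93 ± 0.18). Rises were smaller for the inhibitors Serping1 (at least 1.41-fold, log2 change 0.53 ± 0.08) and Clu, clusterin (0.43 ± 0.08), and the call of Clu was lost without control replicate 1 (highest adjusted p 0.0504). C5ar1, the C5a receptor, was not called (4.95, 5.07 and 4.95 against 5.41, 5.56 and 5.17, adjusted p = 0.0807). It passed the threshold without KA replicate 3 (0.49, adjusted p = 0.0221).

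Promoters are shown for the highest of the 20 largest rises whose 250 bases before the start held a searched motif, since these phagocyte and complement genes rose together. Of the 20, 15 had a promoter in the RefSeq table used (GRCm38.p6). Both strands were searched for the AP-1 site TGANTCA, the cAMP response element TGACGTCA and its shorter core TGACG, an ETS and PU.1 site GAGGAAGT, a STAT site TTCNNNGAA and an E-box CACGTG. The core lies within the full element and is counted again wherever the full one matches. Capitals mark the matches. Cd68 (chr11:69666171-69666420, minus strand) held the AP-1 letters from 149 to 143 and from 24 to 18 bases before the start, and a reversed core. C3ar1 (chr6:122856158-122856407, minus strand) held AP-1 from 22 to 16 bases before the start, C1qb (chr4:136886201-136886450, minus strand) a reversed core, and C1qc (chr4:136892915-136893164, minus strand) a reversed ETS and PU.1 site.
Cd68: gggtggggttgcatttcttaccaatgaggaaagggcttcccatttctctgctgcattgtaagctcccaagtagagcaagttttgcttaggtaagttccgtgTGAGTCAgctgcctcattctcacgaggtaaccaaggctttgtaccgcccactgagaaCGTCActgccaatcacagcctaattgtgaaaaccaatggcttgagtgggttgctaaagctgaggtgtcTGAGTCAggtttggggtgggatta
C3ar1: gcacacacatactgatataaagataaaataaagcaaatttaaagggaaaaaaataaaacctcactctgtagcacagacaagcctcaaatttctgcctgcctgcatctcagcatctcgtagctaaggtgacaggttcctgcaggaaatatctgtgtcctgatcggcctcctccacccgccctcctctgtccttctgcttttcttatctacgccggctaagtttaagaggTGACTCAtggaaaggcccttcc
C1qb: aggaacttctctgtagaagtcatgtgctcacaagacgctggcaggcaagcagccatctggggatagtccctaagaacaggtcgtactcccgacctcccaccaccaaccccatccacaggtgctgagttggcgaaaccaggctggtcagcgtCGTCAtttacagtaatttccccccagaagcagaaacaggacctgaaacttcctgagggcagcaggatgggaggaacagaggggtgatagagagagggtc
C1qc: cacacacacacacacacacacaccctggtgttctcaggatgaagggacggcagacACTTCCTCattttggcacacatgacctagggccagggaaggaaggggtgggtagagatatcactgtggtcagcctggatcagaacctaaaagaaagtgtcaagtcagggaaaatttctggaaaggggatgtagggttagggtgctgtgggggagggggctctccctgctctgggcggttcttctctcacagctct
Over windows of the same length, the AP-1 letters stood in 6.75% of all 32851 promoters. The other shares are of genes with a promoter, and count a gene when any of its promoters holds the letters. For AP-1 they were 6.12% of the tested genes, 22 of 221 genes that rose (9.95%) and 2 of 54 that fell (3.7%). The ETS and PU.1 letters stood in 2.44%, 2.71%, 3.62% and 0% in the same order, and the core in 17.8%, 28%, 15.8% and 11.1%. The full element stood in 1.55%, 2.79%, 0.905% and 1.85%, the STAT letters in 7.02%, 7.41%, 7.69% and 7.41%, and the E-box in 6.02%, 9.4%, 9.5% and 5.56%. These shares are descriptions of letters in the windows, with no test.

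Lysosomal genes rose across enzymes and membrane proteins. Of 26 tested, 16 rose and 0 fell, with a median of 0.54 and per-array medians of 0.45, 0.49 and 0.56. Ctsd, the aspartic protease cathepsin D, read 9.11, 8.92 and 9.14 in controls and 10.31, 10.52 and 10.50 after KA (1.39 ± 0.09, limma adjusted p = 1.02e-07). The cysteine proteases Ctsz (1.38 ± 0.09), Ctss (1.29 ± 0.10) and Ctsh (1.17 ± 0.09) rose by similar amounts, and Ctsb, a more widely expressed one, by 0.49 ± 0.08. Hexa, which degrades gangliosides, read 8.81, 8.79 and 8.69 against 9.56, 9.64 and 9.61, and Grn, the precursor of the lysosomal granulins, 8.76, 8.84 and 9.00 against 9.73, 9.79 and 9.82. Gusb, beta-glucuronidase, a lysosomal enzyme often used as a reference gene, was at or below background on 2 of the 3 control arrays (4.29, 4.08 and 4.18) and reached 4.94, 5.23 and 5.66 after KA, at least 1.92-fold higher. None of the other 9 reference genes tested was called.

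Antigen presentation was represented by class I genes. H2-K1, a classical class I heavy chain, read 8.69, 8.65 and 8.85 in controls and 10.06, 10.14 and 10.38 after KA (1.46 ± 0.14), and H2-D1, another one, 7.88, 7.84 and 8.03 against 9.31, 9.38 and 9.68 (1.54 ± 0.12). Class I genes are near copies, and probe sets can read more than 1 of them; the other 4 probe sets of H2-D1, all dim, changed by between -0.07 and 0.42. Psmb8, an immunoproteasome subunit, rose by 1.00 ± 0.14. These were 3 of 12 tested in this list, and 0 fell; without KA replicate 3, 5 rose. Of 14 interferon response genes, 4 rose, with a median of 0.51, which includes 10 members that were not called; without control replicate 2 or 3 the number was 2. Ifitm3, an antiviral membrane protein, read 7.34, 7.51 and 7.48 against 8.55, 8.65 and 8.62 (1.17 ± 0.21), and Irf8, a transcription factor of microglia, rose by 0.57 ± 0.10. The calls of Ifi27l2a (0.79 ± 0.17) and Oasl2 (0.88 ± 0.20), both interferon-induced, were less stable. That of Oasl2 held only without KA replicate 3 (highest adjusted p over the 6 fits 0.12), and that of Ifi27l2a was lost without control replicate 2, control replicate 3 or KA replicate 2 (highest 0.105). Cytokines and chemokines gave 2 rises among 16, and 1 without KA replicate 3 or any 1 of the control arrays. Ccl6, a chemokine of myeloid cells, read 4.87, 4.54 and 4.66 against 5.31, 5.58 and 5.96. Ccl5, a chemokine for leukocytes, was below background on 5 of the 6 arrays, and its call (0.36 ± 0.09) was lost with any of the 6 arrays left out (adjusted p 0.0586 to 0.147). Il1b, interleukin-1 beta, read 5.63, 5.39 and 5.27 against 5.60, 6.01 and 5.61 and was not called (adjusted p = 0.241).

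Astrocyte genes rose in a second large group. Of 22 reactive astrocyte genes, 10 rose and 0 fell, with a median of 0.42 and per-array medians of 0.49, 0.47 and 0.41. Gfap, the main astrocyte filament protein, read 9.93, 9.89 and 10.14 in controls and 11.79, 11.52 and 11.88 after KA (1.75 ± 0.13, 3.36-fold, limma adjusted p = 4.35e-07). Vim, vimentin, another intermediate filament, read 5.91, 6.35 and 6.71 against 8.29, 8.26 and 8.63 (2.07 ± 0.16). Serpina3n, a serine protease inhibitor of reactive astrocytes, read 6.32, 6.44 and 7.13 against 9.14, 8.90 and 9.07 (2.41 ± 0.17). In Vim and Serpina3n the control arrays spread more widely than the KA arrays, with control replicate 3 the highest. Cd44, a hyaluronan receptor, rose by 1.35 ± 0.12, S1pr3, a receptor for sphingosine 1-phosphate, by 0.93 ± 0.11, A2m, a broad protease inhibitor, by 0.99 ± 0.17, and Osmr, the oncostatin M receptor, by 0.91 ± 0.12.

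Lcn2, the iron-siderophore binding protein lipocalin-2 of reactive astrocytes, was a special case. It read 4.13, 4.49 and 4.27 in controls and 4.49, 7.77 and 4.44 after KA. The high value lay on KA replicate 2 alone, and the other KA arrays lay at or near the range of the controls. Its fitted change of 1.27 ± 0.62 was not called (adjusted p = 0.429) and was 0.17 without KA replicate 2 (adjusted p = 0.9). Cp, ceruloplasmin, also stood highest on that array (4.95, 5.38 and 4.84, against 4.75, 4.71 and 4.72 in controls) and was not called (adjusted p = 0.275; 0.168 without KA replicate 2, adjusted p = 0.646).

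Of 16 genes of resting astrocytes, 6 rose and 0 fell, with a median of 0.30; KA replicate 2 was the lowest KA array of this list, with a median of 0.10 against 0.43 and 0.33 on replicates 1 and 3. Aqp4, the water channel of astrocyte endfeet, read 9.17, 9.25 and 9.47 in controls and 10.37, 9.96 and 10.37 after KA (0.94 ± 0.11). Aldh1l1, a folate enzyme that marks astrocytes, read 6.51, 6.42 and 6.37 against 7.26, 6.81 and 7.12 (0.63 ± 0.13), and its call was lost without control replicate 2, control replicate 3 or KA replicate 1 (highest adjusted p 0.0968). The number of called genes in this list fell to 1 without KA replicate 1 and to 2 without any 1 of the control arrays, and it was 4 without KA replicate 3 and 7 without KA replicate 2. Slc1a3, the glutamate transporter GLAST, read 4.68, 4.75 and 4.74 against 5.09, 4.92 and 5.02 and was not called (adjusted p = 0.1).

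Among matrix genes, 4 of 25 rose and 0 fell, with a median of 0.14, and 2 rose without control replicate 2, control replicate 3 or KA replicate 1. Col3a1, a fibrillar collagen chain, read 5.09, 4.90 and 4.89 in controls and 6.48, 6.27 and 6.10 after KA (1.32 ± 0.12), and Bgn, the proteoglycan biglycan, rose by 0.86 ± 0.10. Col1a1, the main chain of type I collagen, read 7.23, 7.14 and 7.02 against 8.01, 8.09 and 7.35, so that KA replicate 3 lay near the controls. Its call (0.69 ± 0.16) held only without KA replicate 3 (0.92, adjusted p = 0.000138; highest over the 6 fits 0.134). In the TGF-beta and activin list, 2 of 14 rose. Tgfbr2, the type II TGF-beta receptor, read 4.72, 5.17 and 4.73 against 5.87, 5.96 and 6.17 (1.13 ± 0.13); of its other probe sets, one rose by 0.57 and one, below background, changed by -0.05. Igf1, a growth factor made by microglia among other cells, rose by 0.68 ± 0.10 at 6.48, 6.29 and 6.43 against 7.04, 7.12 and 7.10. P2ry13, an ADP receptor of microglia, read 7.33, 7.29 and 7.18 against 8.03, 8.18 and 8.09 (0.83 ± 0.11).

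**Figure D2:**
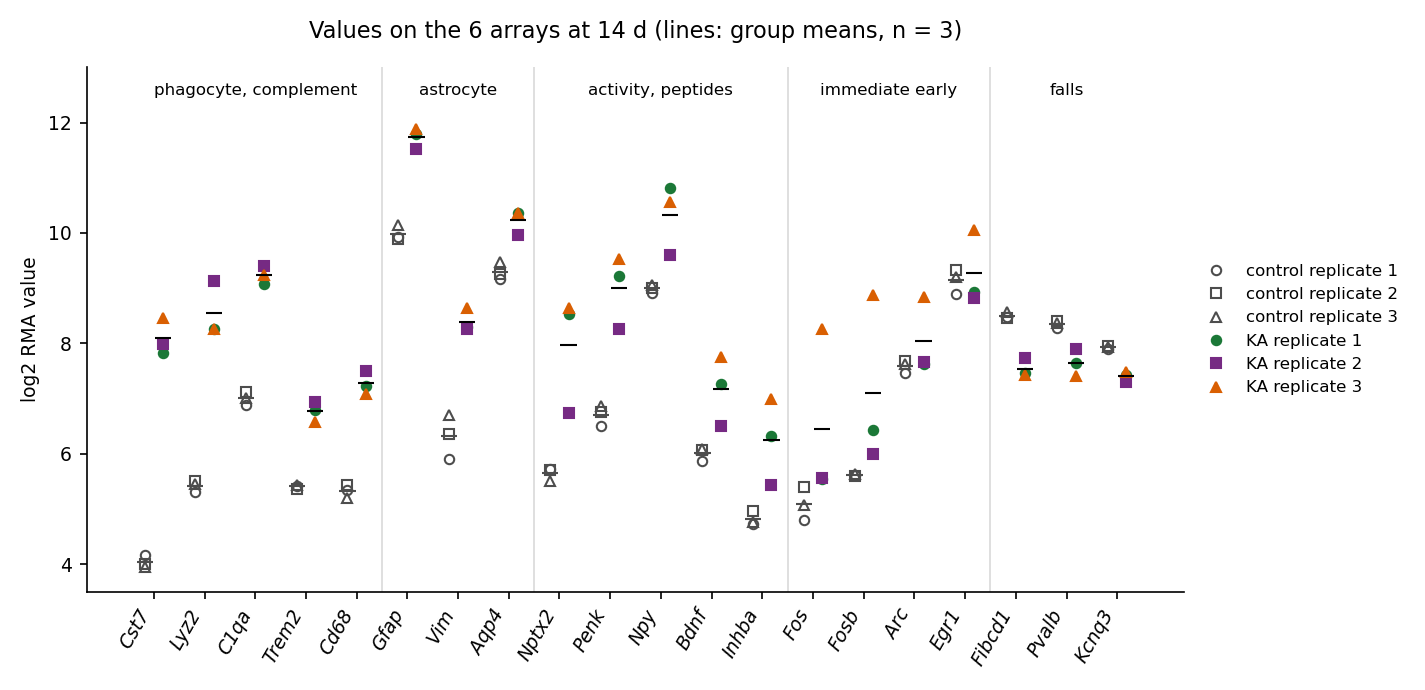
Log2 RMA values of 20 genes on the 6 arrays at 14 d, with open symbols for controls, filled symbols for KA and short lines for the means of 3 arrays. Phagocyte and complement genes such as Cst7 and C1qa are high on every KA array, Nptx2 is lower on KA replicate 2 (6.74) than on replicates 1 and 3 (8.53 and 8.64), and Fos is high on KA replicate 3 alone (8.26).

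Neuronal genes for secreted factors and peptides rose by amounts that differed between the KA arrays. Of 21 delayed activity-induced genes, 7 rose and 0 fell, with a median of 0.56. The median was 0.51, 0.15 and 0.92 on KA replicates 1, 2 and 3, and in 16 of the 21 genes the KA arrays stood in the order 2, 1, 3 from low to high. Over all genes tested, 4274 of 13853 had that order. The number of rises was 12 without KA replicate 2 and 5 without KA replicate 1 or without control replicate 2.

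Nptx2, a neuronal pentraxin that gathers AMPA receptors at synapses, read 5.72, 5.71 and 5.51 in controls and 8.53, 6.74 and 8.64 after KA. All 3 KA arrays were above the controls, with replicate 2 well below the others. The log2 change was 2.32 ± 0.33 (5.00-fold, limma adjusted p = 0.000714), and 2.94 without KA replicate 2 (7.66-fold, adjusted p = 3.07e-09). Penk, the enkephalin precursor, read 6.50, 6.75 and 6.87 against 9.22, 8.26 and 9.53 (2.30 ± 0.23, 4.92-fold). Npy, neuropeptide Y, an inhibitory peptide of interneurons that granule cells also make after seizures, read 8.92, 9.01 and 9.06 against 10.82, 9.59 and 10.57 (1.33 ± 0.21, adjusted p = 0.00195). These were the only 2 of 20 neuropeptide and prohormone genes to be called, and 7 were called without KA replicate 2. Replicate 2 was the lowest KA array of all 3 genes.

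Bdnf, the brain-derived neurotrophic factor, read 5.87, 6.07 and 6.08 in controls and 7.27, 6.49 and 7.76 after KA (1.17 ± 0.21, adjusted p = 0.00612). Inhba, a subunit of activin A, read 4.72, 4.97 and 4.77 against 6.32, 5.43 and 6.98 (1.43 ± 0.25, adjusted p = 0.0039). The other probe set of Inhba, which was dimmer (mean 4.56), changed by -0.50, so its probe sets disagreed in sign. Acvr1c, a receptor of activin-like ligands, read 6.32, 6.22 and 6.28 against 7.66, 6.88 and 7.62 (1.11 ± 0.17). Rgs2, a brake on G protein signalling, read 7.86, 8.07 and 8.02 against 9.07, 8.47 and 9.55 (1.05 ± 0.19), and Cdkn1a, the cell cycle inhibitor p21, 6.50, 6.72 and 6.50 against 7.70, 7.36 and 7.88 (1.07 ± 0.14). In each of these 5 genes KA replicate 2 was the lowest KA array and still lay above every control array.

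Grp, gastrin-releasing peptide, read 6.92, 6.85 and 7.02 in controls and 8.07, 7.20 and 8.54 after KA (1.01 ± 0.24, adjusted p = 0.033). Its call held only without KA replicate 2 (1.38, adjusted p = 0.000267; highest over the 6 fits 0.144). Vgf, a secreted neuropeptide precursor, rose by 0.66 ± 0.14, a call that held only without KA replicate 2 or control replicate 3 (highest adjusted p 0.113). Sorcs3, a sorting receptor induced by activity, rose by 0.57 ± 0.12, a call lost without control replicate 2, control replicate 3 or KA replicate 1 (highest 0.0766). Rgs4, related to Rgs2, and Scg2, secretogranin II, were not called with all arrays (adjusted p = 0.0606 and 0.0765) and were called without KA replicate 2 (0.85 and 0.87, adjusted p = 0.00108 and 0.00136). Scg2 read 8.25, 7.55 and 8.35 after KA, against 7.30, 7.42 and 7.56 in controls, so replicate 2 lay within the range of the controls.

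Immediate early genes gave a different pattern. None of the 20 tested was called, and 7 had an unadjusted limma p under 0.05, against 12.6% of all genes tested. The median log2 change was 0.22. The median was 0.09 and 0.10 on KA replicates 1 and 2 and 0.63 on KA replicate 3, which was the highest of the 6 arrays in 17 of the 20 genes. Over all genes tested it was the highest of 6 in 3282 of 13853. Fos, an AP-1 subunit used as a mark of recent neuronal firing, read 4.81, 5.39 and 5.08 in controls and 5.54, 5.56 and 8.26 after KA. Only KA replicate 3 was far from the controls, and the change of 1.36 ± 0.50 was not called (adjusted p = 0.223; 0.46 without KA replicate 3). Fosb, a related subunit with a long-lived splice form, read 5.62, 5.60 and 5.64 against 6.42, 6.00 and 8.87. It was not called with all arrays (1.48 ± 0.47, adjusted p = 0.136), and was called without KA replicate 3 (0.59, adjusted p = 0.0164) and without KA replicate 2 (2.03, adjusted p = 0.0178). KA replicates 1, 2 and 3 stood 0.81, 0.38 and 3.26 above the control mean of Fosb.

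Arc, a regulator of AMPA receptor uptake, read 7.47, 7.69 and 7.62 in controls and 7.63, 7.67 and 8.84 after KA. Egr1, a zinc finger factor of active neurons, read 8.90, 9.32 and 9.21 against 8.93, 8.82 and 10.04, and without KA replicate 3 its fitted change was -0.26 instead of 0.12. Egr2, of the same family, was at or below background on the controls (4.04, 3.88 and 3.80) and on KA replicates 1 and 2 (4.28 and 4.23) and read 6.72 on KA replicate 3. Without that array the change of Arc was 0.0588 (adjusted p = 0.862), that of Egr2 0.347 (adjusted p = 0.364) and that of Ptgs2 0.171 (adjusted p = 0.617). Ptgs2, cyclooxygenase-2, read 4.02, 3.63 and 5.43 after KA, and the controls and KA replicates 1 and 2 were below background. Npas4, an early factor specific to neurons, was at background on 5 of the 6 arrays and read 4.48 on KA replicate 3. Egr3 was the early gene nearest the threshold (6.75, 6.78 and 6.65 against 7.06, 6.93 and 7.12, adjusted p = 0.0638), and it was called without KA replicate 2 (0.36, adjusted p = 0.0313). With the background of each array as a covariate, a fit chosen after seeing the data, 9 of the 20 were called higher.

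Counted over all genes, 7 stood at least 1 log2 unit above the other 5 arrays on KA replicate 3. They were Fos, Fosb, Egr2, Arc, Ptgs2, Prss23, a serine protease, and Krt73, a keratin. Prss23 was not called (1.67, limma adjusted p = 0.108) and passed the threshold without KA replicate 2 (2.43, adjusted p = 0.00125). On KA replicate 2 there was 1 such gene, Lcn2, and on each of the other 4 arrays there was none. No gene stood at least 1 unit below the other 5 on any array.

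**Figure D3:**
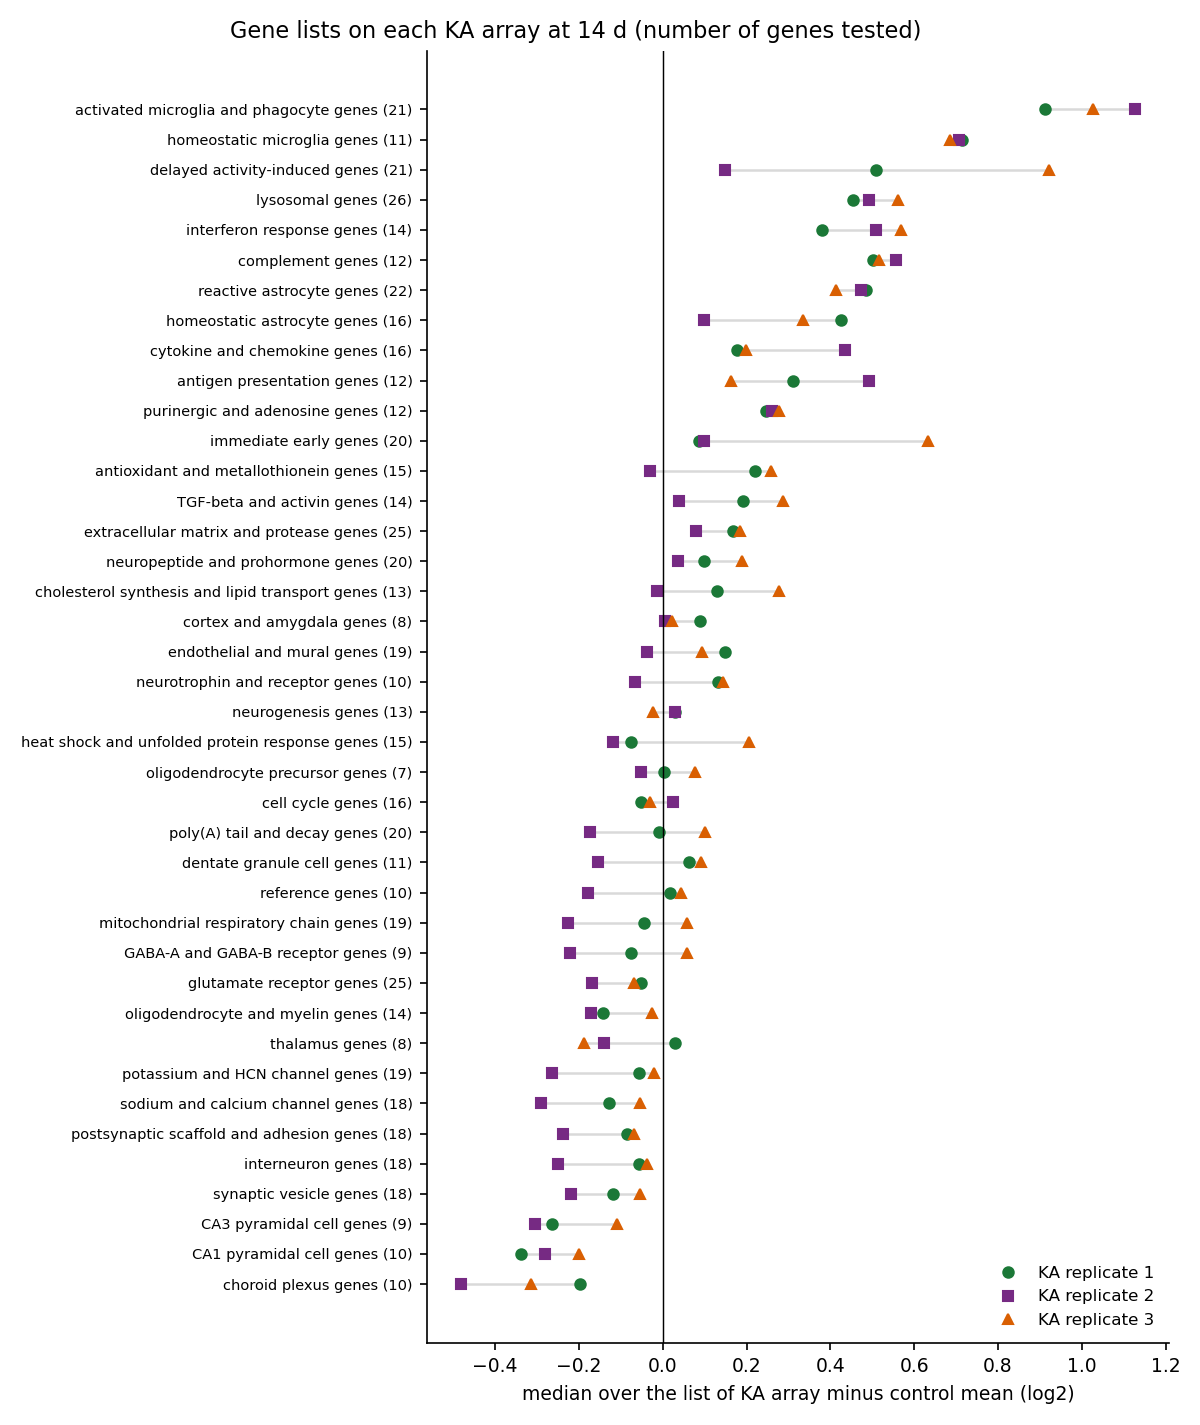
For each gene list with at least 7 tested genes, the median difference of KA replicates 1, 2 and 3 from the control mean (log2, horizontal axis), ordered by the median change; the number of genes tested is in brackets. The 3 KA arrays lie close together for homeostatic microglia genes (0.71, 0.71 and 0.68) and apart for delayed activity-induced genes (0.51, 0.15 and 0.92) and immediate early genes (0.09, 0.10 and 0.63).

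No called fall reached 2-fold. Fibcd1, typical of CA1 pyramidal cells, read 8.47, 8.46 and 8.56 in controls and 7.47, 7.73 and 7.42 after KA (-0.96 ± 0.11, 1.94-fold lower, limma adjusted p = 0.00013). It was the one called gene of 10 on the CA1 list, whose median change was -0.30. The lists of CA3 cells (median -0.16, 1 of 9 lower, Kcnq5) and dentate granule cells (median -0.04) followed. Unadjusted limma p-values under 0.05 numbered 6 of 10, 4 of 9 and 4 of 11 in these 3 lists, against 12.6% of all genes tested. Ankrd63, an ankyrin repeat protein, read 7.30, 7.11 and 6.93 against 6.14, 6.34 and 6.21 (-0.89 ± 0.15). Pvalb, the calcium buffer of fast-spiking interneurons, read 8.28, 8.41 and 8.37 against 7.64, 7.89 and 7.40 (-0.71 ± 0.11, adjusted p = 0.00205). Of the 18 interneuron genes Pvalb was the only one called, with a list median of -0.13. An unadjusted limma p under 0.05 was found for 7 of the 18, against 12.6% of all genes tested. Groups did not overlap in 8 of the 18, against 16.5% of all genes. Gad1 and Gad2, the GABA-synthesising enzymes, were not called (adjusted p = 0.759 and 0.762), with KA replicate 2 the lowest array of both (9.05 and 9.20). Camkk2, a calmodulin-dependent kinase kinase, fell from 8.95, 9.16 and 9.25 to 8.50, 8.50 and 8.32 (-0.68 ± 0.09, adjusted p = 0.000454), and its downstream kinase Camk4 by -0.47 ± 0.11, a call that held only without KA replicate 3 (highest adjusted p 0.143).

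Other falls with stable calls were those of Frzb, a secreted Wnt inhibitor (-0.66 ± 0.10), Homer2, a postsynaptic scaffold protein (-0.59 ± 0.10), and Lamp5, a membrane protein of forebrain neurons (-0.61 ± 0.11). The muscarinic receptor Chrm3 fell by -0.45 ± 0.08. Rskr, a kinase, was at least 1.68-fold lower, Neurl1b, a ubiquitin ligase, 1.52-fold lower and Cygb, cytoglobin, 1.50-fold lower. Some of the largest falls did not keep their call. Lrrtm1, a synaptic adhesion protein, read 7.76, 7.83 and 8.06 in controls and 7.11, 6.63 and 7.59 after KA (-0.77 ± 0.19), and was called only without KA replicate 3 when arrays were left out (highest adjusted p 0.184). Dsp, which encodes desmoplakin and is typical of granule cells in the dentate gyrus, read 7.86, 8.14 and 8.37 against 7.47, 7.02 and 7.75, and was called only without control replicate 1 or KA replicate 3 (highest 0.171). Fxyd7, a regulator of the sodium pump in neurons, lost its call without control replicate 1 or 2 (highest 0.111), Hlf, a PAR bZIP transcription factor, without control replicate 1 (0.055), and Epop, a Polycomb-associated protein, without control replicate 3 or KA replicate 1 (highest 0.0973). The dentate list also held 2 rises, Pdzd2, a PDZ domain protein (0.64 ± 0.12), and C1ql2, a secreted synaptic organiser of mossy fibres (0.48 ± 0.11). Pdzd2 lost its call without KA replicate 1 (0.0515), and C1ql2 kept it only without control replicate 3 or KA replicate 2 (highest 0.146).

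Calls among ion channel genes were mostly falls. Of 19 potassium and HCN channel genes, 3 fell (15.8%, against 0.57% of all genes tested) and 1 rose, and 5 fell without KA replicate 3. An unadjusted limma p under 0.05 was found for 10 of the 19, against 12.6% of all genes tested. Groups did not overlap in 11 of the 19, against 16.5% of all genes. Kcnq3, an M-current subunit that limits repetitive firing, read 7.89, 7.95 and 7.94 in controls and 7.42, 7.29 and 7.48 after KA (-0.53 ± 0.08, adjusted p = 0.0011). Kcnq5, another M-current subunit, read 6.99 on all 3 control arrays and 6.58, 6.62 and 6.76 after KA (-0.34 ± 0.08, adjusted p = 0.034), a call that held only without KA replicate 3 (highest 0.15). Kcnip2, an accessory subunit of A-type channels, fell by -0.54 ± 0.09. Kcnip3, a related calcium sensor also known as DREAM, rose by 0.63 ± 0.14, a call lost without control replicate 2, control replicate 3 or KA replicate 1 (highest 0.101). Of 18 sodium and calcium channel genes 1 fell, Scn2b, a sodium channel beta subunit (-0.35 ± 0.09), and that call was lost with any of the 6 arrays left out (0.0616 to 0.195). Of 18 synaptic vesicle genes 1 fell, Syt1, the calcium sensor of fast release (10.82, 10.83 and 10.87 against 10.57, 10.42 and 10.51), called only without KA replicate 1 or KA replicate 3 (highest 0.0952). None of 25 glutamate receptor genes and none of 9 GABA receptor genes was called in limma. Of these, 7 and 2 had an unadjusted limma p under 0.05, against 12.6% of all genes tested. Neto1, an auxiliary subunit of kainate receptors, was the glutamate receptor gene nearest the threshold (8.55, 8.53 and 8.68 against 8.20, 8.10 and 8.42, adjusted p = 0.052). It was called without KA replicate 3 (-0.44, adjusted p = 0.012), and without KA replicate 2 the rises Grin2c (an NMDA receptor subunit) and Gabrb1 (a GABA-A subunit) were called, with adjusted p = 0.0335 and 0.0214.

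In all, 14 of the 43 lists had no call in either direction. Besides others described with their values, these included the lists of oligodendrocytes (14 tested, median -0.11), their precursors (7, median 0.02), endothelial and mural cells (19, median 0.07), neurogenesis (13, median 0.02), the cell cycle (16, median -0.01) and the respiratory chain (19, median -0.07). Unadjusted limma p-values under 0.05 numbered 4, 0, 3, 2, 0 and 0 in these lists, against 12.6% of all genes tested. Mbp, myelin basic protein, read 11.14, 11.18 and 11.33 in controls and 11.00, 11.09 and 11.29 after KA. Gjc3, a glial connexin, was called lower without KA replicate 3 (-0.43, adjusted p = 0.048). Cldn5, the tight junction protein of brain endothelium, read 5.18, 5.27 and 5.21 against 5.72, 5.69 and 5.32 and was not called (adjusted p = 0.102). It was called without KA replicate 3 (0.48, adjusted p = 0.00894). Sox11, a transcription factor of immature neurons, read 7.33, 7.12 and 6.78 against 7.47, 7.37 and 7.45 (adjusted p = 0.119), and was called without control replicate 1 (0.48, adjusted p = 0.0284).

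The 3 KA arrays spread more widely than the 3 control arrays. The SD over the KA arrays exceeded that over the control arrays in 68.2% of tested genes, and the median SD was 0.13 for KA and 0.09 for control. At 8 h the same medians were 0.11 and 0.09. An SD above 0.5 was found for 69 genes over the KA arrays and for 14 over the controls. The wider spread was found in 70.9% of the genes that rose and 62.0% of those that fell, close to the share over all genes. The median SD over the KA arrays, beside that over the controls, was 0.405 and 0.116 for immediate early genes and 0.424 and 0.118 for delayed activity-induced genes. It was 0.168 and 0.0703 for activated microglia genes, 0.12 and 0.0899 for homeostatic microglia genes, 0.167 and 0.0527 for homeostatic astrocyte genes, 0.145 and 0.0499 for respiratory chain genes and 0.132 and 0.0415 for reference genes.

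**Figure D4:**
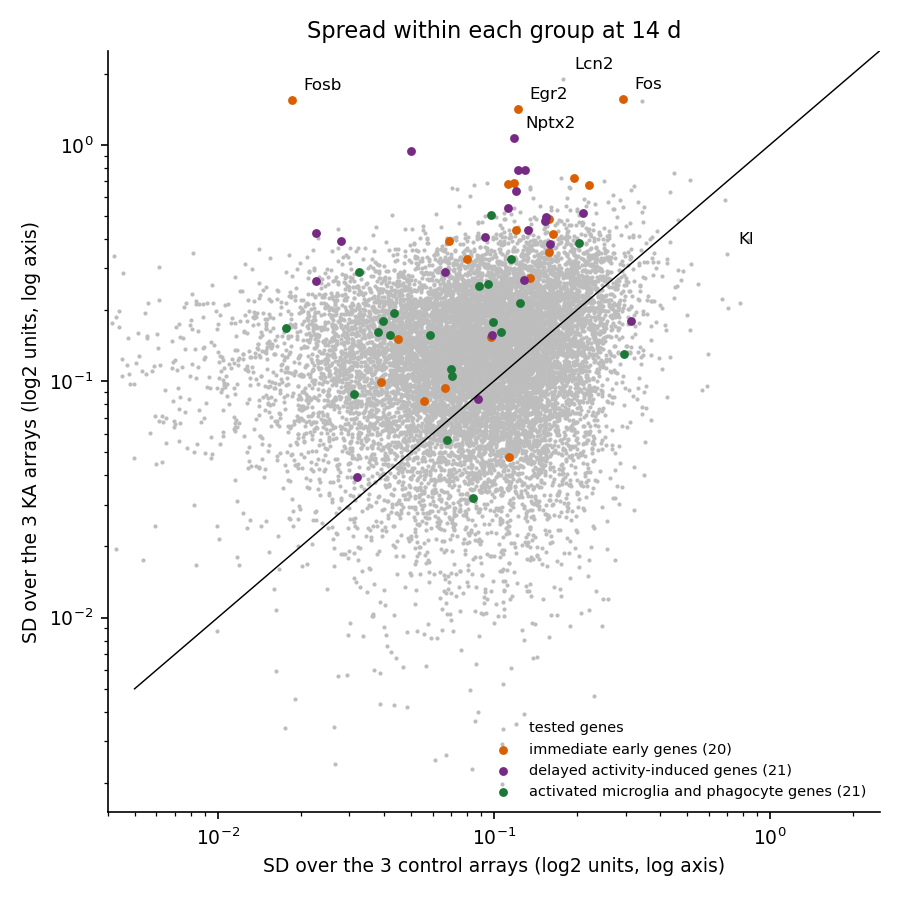
SD over the 3 KA arrays against SD over the 3 control arrays for each tested gene at 14 d (log axes, log2 units); the line marks equal SDs. Fosb, Fos, Egr2, Nptx2 and Lcn2 lie far above the line.

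The 12 genes with the largest SD over the KA arrays, among those with a mean of at least 6, were mostly genes of neuronal activity. Besides Fosb, Nptx2, Arc, Egr1, Grp, Penk and Npy, they held Fosl2, an AP-1 subunit (7.63, 6.98 and 8.35 after KA, against 6.997, 7.05 and 7.22), Dusp4, a MAP kinase phosphatase (7.24, 6.41 and 7.81, against 6.71, 7.10 and 6.63), and Trib2, a pseudokinase (7.80, 7.14 and 8.46, against 7.05, 7.19 and 7.11). Fosl2 and Trib2 were called without KA replicate 2 (0.90 and 1.01, adjusted p = 0.00399 and 0.00181), as was Dusp4 (0.71, adjusted p = 0.0307). The remaining members were Lmo7, a LIM domain protein, and Dlat, a subunit of pyruvate dehydrogenase. In these 5 genes replicate 3 was the highest KA array and replicate 2 the lowest.

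Over all tested genes, KA replicate 1 was the middle array of the 3 in 52.6%, replicate 2 was the lowest in 45.1% and replicate 3 the highest in 41.8%. Some lists departed from this. In the respiratory chain list, KA replicate 2 was the lowest of all 6 arrays in 19 of 19 genes, and in the synaptic vesicle list in 14 of 18, against 4361 of 13853 over all genes. The mean level of the 19 respiratory chain genes was 9.98, 9.96 and 9.99 on the control arrays and 9.94, 9.75 and 10.04 after KA. Conversely, KA replicate 2 was the highest of the 6 arrays in 17 of 21 activated microglia genes and in 10 of 14 interferon response genes, against 2928 of 13853 over all genes. The background of KA replicate 2 was the highest of the 6 arrays and its values the most compressed, and the part of this in its order was not tested.

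The comparison at 8 h, from the other 6 arrays, gives the early changes beside those at 14 d. The labels of the arrays titled 8 h carry another time field, which gives later hours for KA than for control, and sex-linked genes differed between the groups at 8 h (Xist, 3.53 higher after KA), so time or sex and KA cannot be told apart there. At 14 d, Xist read 4.55, 4.36 and 4.29 in controls and 4.48, 4.67 and 4.19 after KA, and the Y-linked gene Eif2s3y 7.55, 7.50 and 8.01 against 7.59, 7.74 and 8.09, with no group apart. Of the 354 genes changed at 14 d, 161 were also called at 8 h in the same direction, 11 in the other direction and 182 were not called, while 17.5% of all genes tested (2420 of 13853) were called at 8 h. The change differed between the times, by the test of the difference itself, in 142 of the 354 and in 5.52% of all genes tested. Among the rises, 110 were larger at 14 d and 26 smaller.

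Of 21 activated microglia and phagocyte genes, 14 had a change that differed between the times, 13 with the higher value at 14 d and 1 with the lower. Of 12 complement genes 6 differed, 5 with the higher value at 14 d and 1, C5ar1, with the lower, while for C3ar1 (1.69 at 8 h and 1.93 at 14 d) a difference was not shown (adjusted p = 0.75). The change of Cst7 was 0.23 at 8 h and 4.06 at 14 d (difference 3.83, limma adjusted p = 1.93e-08), and that of C1qa 0.21 and 2.24 (difference 2.02). Csf1r changed by -0.29 and 0.81, and P2ry12 by -1.56 and 0.43 (difference 1.997, adjusted p = 8.33e-06), though P2ry12 was not called at 14 d. Of 21 delayed activity-induced genes 14 differed, and of 20 immediate early genes 14, in each case with the lower value at 14 d. A difference was not shown for Cdkn1a (1.00 and 1.07, adjusted p = 0.92), Rgs2 (1.78 and 1.05, adjusted p = 0.139) or Egr3 (0.25 and 0.31, adjusted p = 0.88). The change of Inhba was 4.89 at 8 h and 1.43 at 14 d, that of Bdnf 2.88 and 1.17, and that of Nptx2 4.08 and 2.32 (difference -1.76, adjusted p = 0.039). The peptide genes Penk and Grp went the other way, Penk with 1.13 at 8 h and 2.30 at 14 d (difference 1.17, adjusted p = 0.0473) and Grp with -0.40 and 1.01 (difference 1.41, adjusted p = 0.0229). Of 22 reactive astrocyte genes 7 differed, 1 with the higher value at 14 d and 6 with the lower. In this list 18 rose at 8 h (median 0.78), against 10 at 14 d (median 0.42). Gfap changed by 1.02 and 1.75, a difference of 0.73 (adjusted p = 0.0253). For Cd68 (1.50 and 1.95) and Serpina3n (1.91 and 2.41) a difference was not shown (adjusted p = 0.125 and 0.288). Of 190 genes that rose at least 2-fold at 8 h, 43 rose and 0 fell at 14 d. Over all genes tested, 1.99% rose and 0.57% fell. The median difference of the 190 from the control mean was 0.22, 0.08 and 0.43 on KA replicates 1, 2 and 3. Replicate 3 was the highest KA array in 64.2% of the 190, against 41.8% of all genes tested. Replicate 2 was the lowest in 65.3%, against 45.1%.

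**Figure D5:**
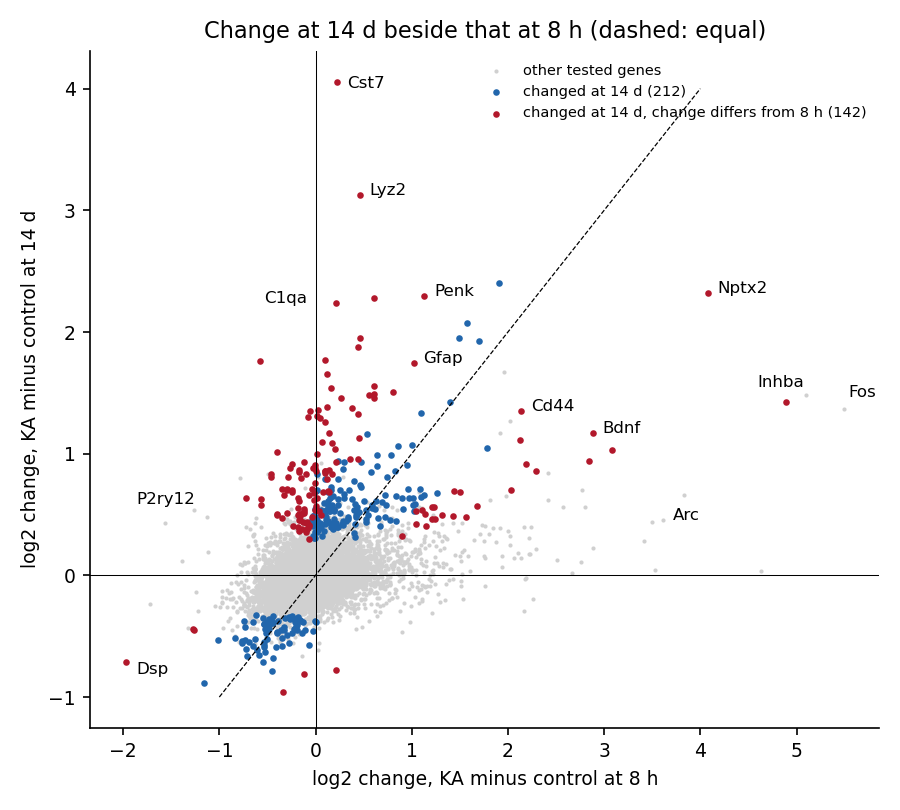
Log2 change between KA and control at 14 d (vertical axis) beside that at 8 h (horizontal axis) for each tested gene; of the 354 genes changed at 14 d, red marks the 142 whose change differed between the times. Cst7, Lyz2 and C1qa lie near 0 at 8 h and high at 14 d, while Inhba, Bdnf and Nptx2 lie below the dashed line of equal change.

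Markers of tissue next to the hippocampus and of blood were examined for a tie with the groups. Of 10 choroid plexus genes none was called, all 10 had negative fitted changes (median -0.34), and 0 had an unadjusted limma p under 0.05. Ttr, transthyretin, read 12.26, 12.00 and 11.65 in controls and 11.84, 11.57 and 11.90 after KA, and Kl, klotho, 7.04, 6.18 and 5.65 against 6.04, 5.63 and 6.32, with control replicate 1 the highest array of both. Of 8 thalamus genes none was called, and 3 had an unadjusted limma p under 0.05, against 12.6% of all genes tested. Groups did not overlap in 4 of the 8, against 16.5% of all genes, and 3 of the 8 had positive fitted changes (list median -0.11). Of the thalamic markers, Prkcd read 5.62, 5.45 and 5.86 in controls and 6.26, 5.87 and 6.27 after KA (limma adjusted p = 0.251). Tcf7l2 read 6.39, 6.31 and 6.375 against 7.055, 6.34 and 6.71 (limma adjusted p = 0.711). Markers of blood leukocytes were at the bottom of the range: Cd3e, S100a8 and Ccr2 were below background on all 6 arrays, and none of the 5 tested leukocyte genes was called. Among erythrocyte genes, Hba-a1, alpha globin, read 12.47, 12.57 and 12.30 in controls and 11.98, 12.28 and 12.19 after KA, and none of 3 was called (2 had an unadjusted p under 0.05). Of 8 cortex and amygdala genes 1 was called, Lamp5, which fell (-0.61, adjusted p = 0.00403). The cortical marker Fezf2 read 6.67, 6.72 and 6.55 against 6.19, 6.12 and 6.69 and was not called (adjusted p = 0.36), but was called lower without KA replicate 3 (-0.49, adjusted p = 0.0358). Rspo1, of cortex and amygdala, was below background on all arrays. The markers chosen for excitatory neurons were above background on every array. Among them were Prox1 of granule cells (8.07, 8.09 and 8.40 against 8.52, 8.03 and 8.53) and Slc17a7, the vesicular glutamate transporter (9.43, 9.42 and 9.59 against 9.80, 9.30 and 9.98). Slc17a7 was not called (adjusted p = 0.575) and passed the threshold without KA replicate 2 (0.41, adjusted p = 0.0355).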

How the data were processed

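RNA from the hippocampus of 12 mouse samples was measured on Affymetrix MG-430 PM arrays. The authors deposited log2 values made by RMA, which corrects background, normalizes between arrays and summarises probes, per the submitters' processing notes for the method and from the values for the log2 scale. No scanner intensities were used here. The number of arrays, 3 per group, limits the precision.

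Of 45037 probe sets other than controls, 28898 had 1 gene symbol in the platform annotation, 551 had several and 15588 none. The probe set with the highest mean stood for each of 17097 genes, and 13853 genes brighter than the 30th percentile (4.08 to 4.15, depending on the array) on at least 3 arrays were tested. limma (version 3.58.1, R 4.3.3) fitted 4 group means over all 12 arrays (8 residual degrees of freedom), with p-values adjusted by the Benjamini-Hochberg method over all genes tested and a threshold of 0.05. Errors of changes are SEs. Background is the mean of 8 GC-rich control probe sets on an array, and folds are worded "at least" when any array of the dimmer group is at or below it. The procedure was tested on simulated data of 13853 genes. Noise was independent between arrays, with each gene's residual spread over all 12 arrays and the same SD in the 4 groups. There, 76.1% of genes changed by 0.5 and 100% of those changed by 1 or 2 were called, with 6 false calls. The simulation held neither the wider spread of the KA arrays nor deviations shared between arrays, so these rates may not hold for the data.

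Named genes were the 20 largest rises and 15 largest falls without overlap, up to 4 called members of each list by adjusted p (or 2 by unadjusted p where none was called), the 12 with the largest SD over the KA arrays, and 15 set by name. Predicted genes were skipped and some members of these sets are not described; other genes named were chosen after their values were seen. The members and lists were chosen with earlier results of these data known. Lists are described by counts and medians only. Replicate numbers were not used as pairs in the main fit. Deviations of same-numbered arrays at 14 d correlated at 0.17, 0.06 and 0.49. Among the replicate 3 arrays of the 4 groups, every pair correlated at 0.41 to 0.54. Replicate 3 also had the lowest background of each group. It was 4.16 and 4.10 for control and KA at 8 h, and 4.18 and 4.27 at 14 d. The source of this was not tested, and traits of KA replicate 3 may not be particular to it. Alternatives covered the filter, the probe set per gene, normalization, the arrays in the fit, weights, the variance model, the replicate block and leaving out each array.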

Additional observations from a re-analysis of the deposited data

Results flagged for a closer look

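The test of the difference between the times singled out the following named genes, with the value being the log2 change at 14 d minus that at 8 h. Among genes of microglia and phagocytes the difference was positive for Cst7 (3.83), Lyz2 (2.67), Trim30d (2.35), P2ry12 (1.997), Mpeg1 (1.54), Tyrobp (1.49), Laptm5 (1.41), Olfml3 (1.38), Trem2 (1.34), P2ry13 (1.30), Tmem119 (1.202), Csf1r (1.09), Aif1 (1.02), Cd53 (0.95), Apoe (0.93), Fcer1g (0.93), Cyba (0.88), Clec7a (0.85), Itgb2 (0.85), Cx3cr1 (0.84), Fcrls (0.70), Igf1 (0.61) and Gpnmb (0.59). It was also positive for the complement genes C1qa (2.02), C4b (1.67), C1qc (1.67), C1qb (1.43) and Serping1 (0.54), the lysosomal genes Ctsd (1.27), Ctss (1.25), Grn (1.16), Ctsh (1.04), Gusb (1.03), Ctsz (1.001), Hexa (0.74) and Ctsb (0.44), and the antigen presentation, interferon and chemokine genes H2-D1 (1.38), H2-K1 (1.19), Oasl2 (1.15), Psmb8 (0.98) and Ccl5 (0.46). Further positive differences were those of Grp (1.41), Penk (1.17), Col3a1 (0.88), Bgn (0.76), Gfap (0.73), Aqp4 (0.72), Tgfbr2 (0.67) and Grin2c (0.60), and of Dsp (1.26), whose fall was smaller at 14 d.

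The difference was negative for the activity genes Fos (-4.12), Fosb (-3.62), Inhba (-3.47), Arc (-3.16), Egr1 (-2.38), Npas4 (-2.08), Ptgs2 (-2.06), Fosl2 (-2.01), Scg2 (-1.79), Nptx2 (-1.76), Bdnf (-1.71), Dusp4 (-1.47), Rgs4 (-1.196), Sorcs3 (-1.11) and Acvr1c (-1.01). It was negative as well for C5ar1 (-1.53), Fezf2 (-1.53), Osmr (-1.27), Sox11 (-0.87), Cd44 (-0.79) and Zfp36l1 (-0.67), and for the falls Lrrtm1 (-0.98), Rskr (-0.69) and Fibcd1 (-0.62). Xist (-3.48) and Eif2s3y (1.51) also differed between the times, with the groups apart in sex-linked genes at 8 h.

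Among 10398 probe sets without a single gene symbol that passed the filter, 125 changed at 14 d by limma (1.2%), 94 higher and 31 lower. These probe sets are outside the comparison of named genes.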

How the results depend on the processing

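The count of 354 changed genes (275 higher, 79 lower) stayed within 1.5 times under other filters, other choices of probe set, other normalizations, a mean-variance trend with robust fit and without X and Y genes, the last chosen after seeing the data (329 to 466 changed). It was 2099 (1260 higher, 839 lower) with array weights, 650 (479 and 171) with array background as a covariate, also chosen after seeing the data, and 170 (146 and 24) at an adjusted p under 0.01. The array weights at 14 d were 5.04, 0.33 and 0.38 for KA replicates 1, 2 and 3, so KA replicate 1 dominated the KA mean in that fit. For control replicates 1, 2 and 3 the weights were 1.07, 2.31 and 0.74. With the 14 d arrays alone in the fit, 245 genes changed, 206 higher and 39 lower. With a replicate block over all arrays 599 changed (418 higher, 181 lower), and with the block within each time 576 (169 lower). Leaving out 1 array gave 196 to 457 changed, 165 to 383 higher, 31 to 138 lower and 508 to 902 genes differing from 8 h. That last count, 764 as reported, was 2168 with array weights, 1214 with the block and 346 at the stricter threshold. The share of genes with the larger SD in KA, 68.2%, was 66.4% with no filter, 70.0% with the 50th percentile, 69.3% with the mean of probe sets, 69.2% with median centring, 64.0% with cyclic loess and 64.8% with quantile normalization. The cause of these shifts was not tested.

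Of 3590 comparisons of 172 named genes with a setting, 3269 kept direction and call, 186 lost a call, 114 gained one and 21 changed sign, and 74 of 110 called named genes kept their call throughout. The sign changes were in genes that were not called. With the mean of probe sets, Lmo7 (-0.03 as reported) was 0.043 and Xist -0.094, and without x_at and s_at probe sets Xist was -0.13. With array weights Lmo7 was 0.15 and Egr1 -0.19. With the covariate Lmo7 was 0.43, Dlat 0.14, Mbp 0.036 and Xist -0.027. Without the third array of each group Dusp4 was -0.081 and Egr1 -0.23. Leaving out 1 array gave Lmo7 -0.33 to 0.36, Egr1 -0.26 to 0.35, Dlat -0.50 to 0.15, Gad1 -0.24 to 0.024, Kl -0.61 to 0.083, Xist -0.061 to 0.18 and Eif2s3y -0.021 to 0.28.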

Other observations

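Smaller groups held single changes. Of 20 genes of poly(A) tail control and mRNA decay, 2 rose, Zfp36l1 and Zfp36l2, which encode proteins that bind AU-rich elements, and 0 fell (median -0.02). Neither call held throughout: the list had 0 rises without control replicate 1, control replicate 3 or KA replicate 1, and 1 without control replicate 2. Cpeb4, a regulator of cytoplasmic polyadenylation, was not called (-0.24, limma adjusted p = 0.351). Of 15 antioxidant and metallothionein genes 3 rose and 0 fell (median 0.19), among them Mt1, a metal-binding protein (0.52, adjusted p = 0.0011), with 1 rise without control replicate 1 or 2. Of 12 purinergic and adenosine genes 2 rose (median 0.24), and 1 rose without control replicate 1, control replicate 3, KA replicate 1 or KA replicate 3. Among the 2 was P2ry6, the UDP receptor of phagocytosis, whose call held only without control replicate 2 (highest adjusted p over the 6 fits 0.158). Of 10 neurotrophin and receptor genes 2 rose (median 0.06), of 15 heat shock genes 1 rose (Hspb8, a small heat shock protein), and of 13 lipid genes 1 rose (Plin2, a lipid droplet coat protein), a call lost without any 1 of the control arrays or KA replicate 2 (highest adjusted p 0.0952).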
